A study of Mus musculus with 19 samples.

Results

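Acetylation of histone H3 at lysine 27 (H3K27ac) was compared between microglia of wild-type (WT) mice on a normal diet, called basal, and CD11c-high microglia of WT mice fed cuprizone (CPZ). The members were all H3K27ac peaks that the authors listed as different between these groups, 7520 of the 14035 peaks listed over the 5 comparisons of the series. Both groups were C57BL/6 mice with the genotype label PRMT1Ifl/fl, a floxed allele of the arginine methyltransferase PRMT1, without the inducible Cx3cr1-driven Cre that deletes it in the knockout. By the study's methods, WT mice received tamoxifen before the cuprizone diet, and whether basal mice did is not stated. Basal mice carry the time label 11 weeks and ate normal chow. The CPZ mice ate 0.2% cuprizone for 5 weeks. Microglia were sorted by CD45 and CD11b. CPZ microglia were sorted by CD11c as well, and no CD11c gate is given for basal microglia, so the diet and the gate cannot be told apart. Fewer cells of a type and less signal per cell cannot be told apart either in such bulk libraries. Each group had 2 H3K27ac libraries from independent biological replicates. Neither sex nor pooling of the animals is stated for these libraries.

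Microglia are the resident macrophages of the brain. Cuprizone is a copper chelator that kills oligodendrocytes, and microglia around the degenerating myelin take up debris, switch on lipid and lysosome genes and lower genes of their resting state. CD11c, the integrin alpha X chain encoded by Itgax, marks a subset of such responding cells. H3K27ac sits on nucleosomes beside active promoters and enhancers, so a peak tells where a regulatory region was active, and a gain or a loss far from a gene start is usually read as a change of an enhancer. The gene given with a peak here is the one with the nearest start, which need not be the gene the region acts on.

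The 4 libraries differed in depth. The deposited values are normalized tag counts, and nearly all of them were whole multiples of the value of 1 read in their library (99.96% to 100% of values). Relative depth was 62.6% and 94.8% of the mean in the basal libraries and 112.5% and 130.05% in the CD11c-high libraries, and the median peak held 29 and 36 reads against 107 and 124. Basal replicate 1 stood above basal replicate 2 in 75.5% of the listed peaks, by a median of 0.31 on the log2 scale, while the CD11c-high replicates differed by a median of 0.012. The median coefficient of variation between replicates was 20.9% in basal and 7.81% in CD11c-high microglia. Tmem119, a homeostatic microglia gene, has its start in a wide peak with 9494 and 7015 tags in basal and 4001 and 3893 in CD11c-high libraries. This peak is itself a member and also covers the starts of Sart3 and Iscu, so it cannot check microglial identity. At Itgax, the gene of the sort marker, the peak over its start (chr7:128126984-128134770) had 486 and 399 tags in basal and 1801 and 1755 in CD11c-high libraries. This cannot check the CD11c gate, since CD11c-low CPZ cells were also above basal cells there in their own comparison. In 1 piece of the region CD11c-low cells had 651 and 677 tags against 202 and 157 in basal cells. In another they had 596 and 580 against 271 and 230.

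Of the 7520 listed peaks, 5571 (74.1%) were higher and 1949 (25.9%) lower in CD11c-high than in basal microglia. These shares are the background against which every list below is read. They hold under the authors' scaling, since TMM factors computed over the listed peaks gave 3931 higher and 3589 lower peaks (52.3% higher). Such factors centre the list and shift the log2 ratios by a median of -1.44, which is more than the size of the smaller gains. The 2 groups did not overlap at any listed peak, as a list chosen for this contrast makes likely. The ratios are therefore descriptions and carry no test. With 2 libraries in each group, the smallest p of an exact two-sided permutation test would be 0.33. limma over the listed peaks alone called 7519 of 7520 (100%) at an adjusted p under 0.05, which says only that replicates lay close together beside differences of the listed size.

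Sequences behind some of the largest differences are shown before their values, as 300-base windows of mm10 (GRCm38.p6, plus strand) taken where each peak held most matches to 14 searched motifs. Capitals mark the matches. The first pair belongs to peaks among the largest log2 ratios of the gains, near F630040K05Rik (chr17:45743404-45743703) and Tmem163 (chr1:127609250-127609549). The next belongs to the largest promoter gain, Stra6l (chr4:45847535-45847834), and the last pair to the largest loss at a mean of at least 50 tags, Hlf (chr11:90355360-90355659), and the largest promoter loss, Gp9 (chr6:87777438-87777737).
F630040K05Rik: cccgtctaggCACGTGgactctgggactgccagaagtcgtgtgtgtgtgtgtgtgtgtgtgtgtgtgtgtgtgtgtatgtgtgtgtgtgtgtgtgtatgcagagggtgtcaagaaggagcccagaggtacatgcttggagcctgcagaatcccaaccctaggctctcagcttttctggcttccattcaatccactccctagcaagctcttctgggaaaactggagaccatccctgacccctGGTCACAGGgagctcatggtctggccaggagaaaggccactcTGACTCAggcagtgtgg
Tmem163: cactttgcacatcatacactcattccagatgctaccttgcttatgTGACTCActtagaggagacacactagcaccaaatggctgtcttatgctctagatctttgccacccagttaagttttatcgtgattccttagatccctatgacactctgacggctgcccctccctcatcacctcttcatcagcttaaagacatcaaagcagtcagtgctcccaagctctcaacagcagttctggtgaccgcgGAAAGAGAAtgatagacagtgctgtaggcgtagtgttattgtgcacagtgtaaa
Stra6l: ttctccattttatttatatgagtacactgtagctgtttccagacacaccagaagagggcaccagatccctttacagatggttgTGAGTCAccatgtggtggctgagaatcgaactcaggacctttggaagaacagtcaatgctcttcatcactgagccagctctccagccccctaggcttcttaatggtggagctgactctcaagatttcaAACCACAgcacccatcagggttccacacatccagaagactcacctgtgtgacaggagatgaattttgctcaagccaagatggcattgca
Hlf: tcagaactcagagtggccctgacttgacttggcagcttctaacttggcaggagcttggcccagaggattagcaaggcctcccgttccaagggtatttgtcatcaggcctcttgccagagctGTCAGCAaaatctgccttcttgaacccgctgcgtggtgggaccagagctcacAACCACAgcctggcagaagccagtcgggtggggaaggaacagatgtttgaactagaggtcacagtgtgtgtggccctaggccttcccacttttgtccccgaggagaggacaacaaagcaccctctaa
Gp9: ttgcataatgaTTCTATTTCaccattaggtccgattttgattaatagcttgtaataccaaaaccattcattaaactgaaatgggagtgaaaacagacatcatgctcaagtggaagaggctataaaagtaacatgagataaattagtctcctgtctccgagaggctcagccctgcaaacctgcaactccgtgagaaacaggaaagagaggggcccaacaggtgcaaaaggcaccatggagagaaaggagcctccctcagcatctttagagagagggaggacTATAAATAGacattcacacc

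The Hlf window held a GTCAGCA match to the MAF motif and an AACCACA match to the RUNX motif, and the Gp9 window held IRF and MEF2 matches. The windows were chosen for their matches and are not all of the windows of the largest peaks, so nothing is read from which motifs they hold, and the shares over all peaks and over the genome are given further down.

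The gains were spread wider than the losses. The median log2 ratio of CD11c-high over basal (pseudocount 1) was 1.89 for higher peaks, with quartiles of 1.36 and 2.69 and a maximum of 6.86. For lower peaks the median was -1.77, with quartiles of -2.38 and -1.35 and a minimum of -4.76. A difference of over 3 on the log2 scale was seen in 1092 higher peaks (19.6%) and 179 lower peaks (9.18%). Such counts rest on the authors' scaling. Under it 5501 peaks were higher and 1946 lower by over 2-fold, against 1805 and 1949 with TMM factors computed over the listed peaks. The median higher peak went from 33.1 tags in basal to 140.2 in CD11c-high microglia, and the median lower peak from 76.4 to 22.6. Among peaks whose larger group mean was over 1000 tags, 244 were higher and 36 lower, whereas below 20 tags 176 were higher and 270 lower.

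**Figure D1:**
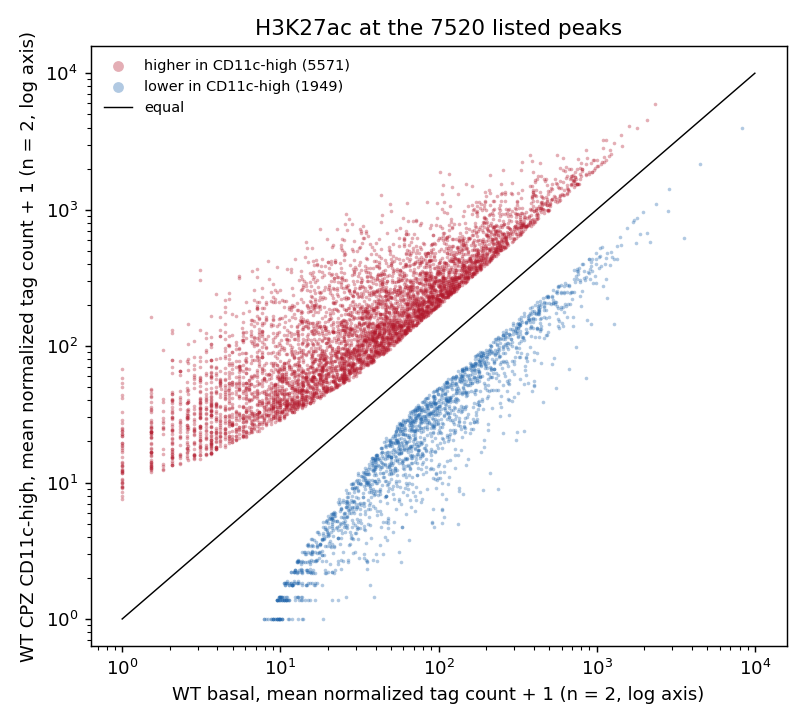
Mean normalized tag count + 1 of the 2 WT CPZ CD11c-high libraries against that of the 2 WT basal libraries, both on log axes, for the 7520 listed peaks, with a line of equality. The 5571 higher peaks lie above the line and the 1949 lower peaks below it, with an empty band between them that follows from the fold limit of the list.

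Regions had been called in basal cells, in CD11c-high cells or in both before they were merged. Of the higher peaks, 3028 (54.4%) were called in both, 1936 (34.8%) in CD11c-high cells only and 607 (10.9%) in basal cells only. Of the lower peaks, 1615 (82.9%) were called in basal cells only, 334 (17.1%) in both and 0 in CD11c-high cells only. Gains thus lay mostly in regions called in basal microglia, and losses mostly in regions called in basal microglia only. Calls are tied to direction in a list chosen for this contrast and do not measure presence, so the split is a description. The regions gained in CD11c-high cells only had a median of 6.65 tags in basal and 56.1 in CD11c-high microglia (median log2 ratio 2.99), against 77.3 and 258 for gains called in both (median log2 ratio 1.56). The 607 gains called in basal cells only were short, with a median width of 910 bases, and went from a median of 23.9 to 66.1 tags.

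**Figure D2:**
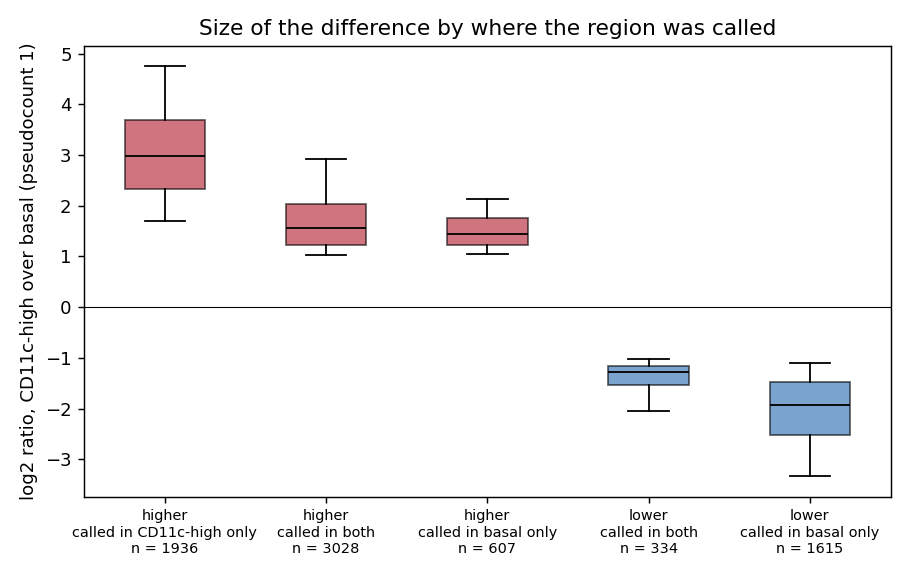
Log2 ratio of CD11c-high over basal microglia for higher (red) and lower (blue) peaks, split by the group in which the region was called. Boxes give quartiles with the median and whiskers the 5th to 95th percentile. Gains called in CD11c-high only sit highest, with a median of 2.99, and the lower peaks called in both sit nearest to 0, with a median of -1.28.

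Most members lay away from gene starts. Introns held 2918 (52.4%) of the higher and 1009 (51.8%) of the lower peaks, and intergenic sequence 2050 (36.8%) and 708 (36.3%). Promoters held 301 (5.40%) and 75 (3.85%). The median distance to the nearest start was 17.6 kb for higher and 22.6 kb for lower peaks, and 485 (8.71%) and 271 (13.9%) lay over 100 kb away. Median widths were 1610 and 1838 bases, and 56 higher and 31 lower peaks spanned 10 kb or more. The GC content was close, with medians of 46.7% and 47.9%. By chromosome, the share of higher peaks ran from 60.1% on chromosome 14 to 82.4% on chromosome 10, leaving out the 3 peaks on chromosome Y.

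The largest gain lay far upstream of Igf1, which encodes a growth factor. This intergenic peak (chr10:87695199-87697647, 161842 bases from the start) had 0 and 4.22 tags in the basal libraries and 344 and 375 in the CD11c-high libraries, a log2 ratio of 6.86. Other peaks also went from a few reads at most in basal cells to the level of strong peaks. An intronic peak of Tmem163, which encodes a zinc transporter (chr1:127608656-127611172), had 0 and 4.22 tags in basal and 328 and 281 in CD11c-high libraries. Both peaks were called in CD11c-high cells only. With so few basal reads the ratio depends on the pseudocount, and with 5 in place of 1 it was 5.68 for Igf1.

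Genes of transcription control, metabolism and adhesion were also nearest to such gains. A peak near Id3, an inhibitor of basic helix-loop-helix factors (chr4:136122283-136124397, intergenic), went from 7.99 and 3.16 tags in basal to 399 and 311 in CD11c-high libraries. One near Acaca, the rate-limiting enzyme of fatty acid synthesis (chr11:84190558-84191905, intergenic), went from 0 and 2.11 to 136 and 125 tags. The intronic peak of Dscam, a cell adhesion molecule known from neurons (chr16:97066067-97067823), went from 3.20 and 0 to 133 and 156 tags. The authors' mean RNA level per kb of transcript was 0.269 for Dscam and 50.9 for Igf1. This mean covers 3 basal and 1 CD11c-high RNA libraries, so it says little about RNA in the CD11c-high cells that held these peaks. Others of the 12 largest gains, each of a different gene, were near F630040K05Rik, Mir7661, Specc1l, Micalcl, Stra6l and Lyzl1, and all but Stra6l had at most 3 reads in each basal library. Their log2 ratios ran from 5.88 to 6.73 and rest on the pseudocount. Both basal libraries were at 0 tags near Lyzl1, which makes that gain at least 12.06-fold against a floor of 3 reads per library.

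The largest loss among peaks with a basal mean of at least 50 tags lay in an intron of Hlf, a PAR bZIP transcription factor of the circadian output (chr11:90355116-90357534), with 144 and 120 tags in basal and 1.78 and 6.15 in CD11c-high libraries, a log2 ratio of -4.74. The peak near Rtf2, a replication termination factor (chr2:172428371-172432943, intron), had 264 and 209.8 tags in basal and 4.44 and 11.5 in CD11c-high libraries. The 5' UTR peak of Gpr165, an orphan receptor of resting microglia (chrX:96712056-96715680), had 239.6 and 183 against 11.6 and 10.0 tags. In all 3, both basal libraries were far above both CD11c-high libraries, which held 11.6 tags at most.

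Metabolic and signalling genes were also among the 12 largest losses. A peak near Idh2, the mitochondrial isocitrate dehydrogenase (chr7:80133947-80135959, intergenic), went from 118 and 90.7 tags to 2.67 and 5.38. An intronic peak of Prkab1, a regulatory subunit of the energy sensor AMPK (chr5:116017715-116019840), went from 161 and 122 to 4.44 and 10.0 tags. A peak near Ppp2r1b, a scaffold subunit of the phosphatase PP2A (chr9:50846042-50847706, intergenic), went from 76.7 and 51.7 to 1.78 and 3.84 tags. The remaining peaks of the 12, near Trp53i11, Ykt6, B9d1, Khdrbs3, Kbtbd12 and Tagln, had log2 ratios between -4.44 and -4.14.

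**Figure D3:**
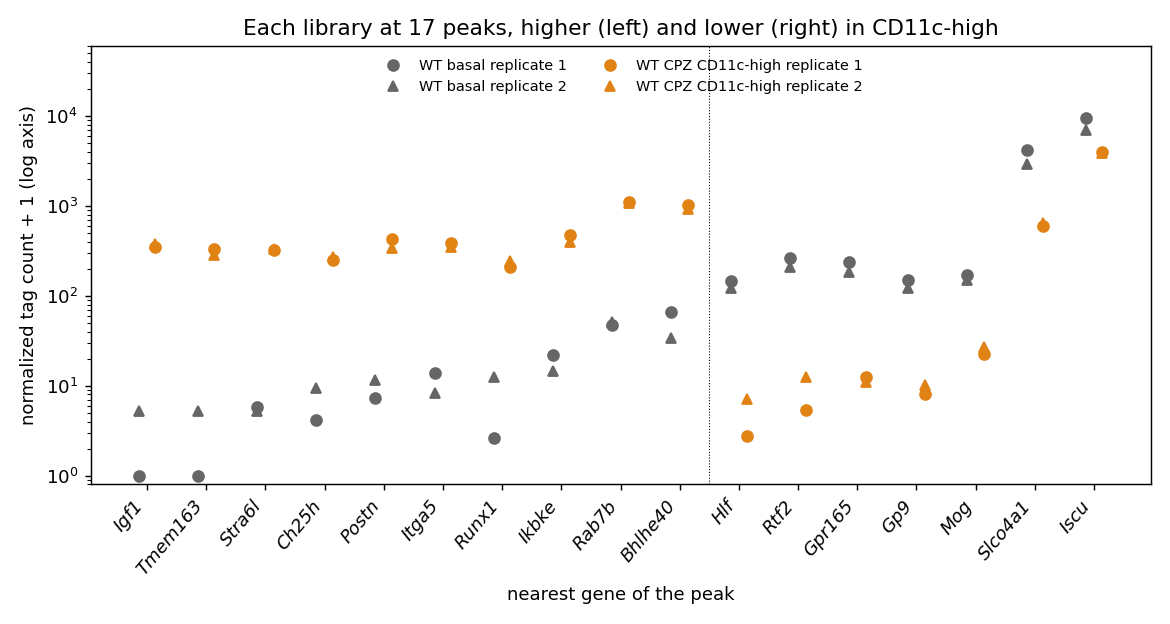
Normalized tag count + 1 on a log axis in each library at 17 named peaks, labelled by the nearest gene, with circles for replicate 1 and triangles for replicate 2. Left of the dotted line are 10 peaks higher in CD11c-high microglia, such as Igf1 (0 and 4.22 against 344 and 375 tags), and right of it 7 lower peaks, such as Gpr165 (239.6 and 183 against 11.6 and 10.0). The 2 groups do not overlap at any peak shown.

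Presence in 1 group only was assessed in reads. The libraries differed in depth, so 3 reads stand for up to 4.79 tags in basal and 2.67 in CD11c-high libraries. Counts of the 2 directions thus have unlike floors in tags and are not comparable. At most 3 reads in each basal library were found at 480 higher peaks (8.62%), of which 49 had 0 reads in both. At most 3 reads in each CD11c-high library were found at 232 lower peaks (11.9%), of which 34 had 0 in both. These peaks were narrow, with a median width of 501 bases in both directions, and weak, with a median level of 24.6 and 11.9 tags where present. Only 75 of the 480 and 2 of the 232 reached 50 tags. The intronic peak labelled Mir7661, a microRNA gene (chr6:108503882-108504735), had 0 tags in both basal and 66.7 and 67.7 in CD11c-high libraries, or at least 14.01-fold higher against a floor of 3 reads per library. Leaving out basal replicate 2 raised the 480 to 863, so that this count rests on both basal libraries.

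The largest changes in absolute tags lay in wide domains that both groups had. The widest higher peak covered the start of Cd9, which encodes a tetraspanin (chr6:125465821-125496454), and went from 2681 and 1999 tags in basal to 6127 and 5861 in CD11c-high libraries. The domain over Apoe and Apoc1, whose products carry lipids (chr7:19691130-19702732), went from 372 and 381 to 2576 and 2433 tags. The domain over the start of Abca1, the cholesterol efflux pump (chr4:53146144-53160877), went from 1257 and 918 to 3392 and 3103. Domains near Mapkapk2, a stress kinase, Mthfs, a folate enzyme, and Klhl25, a ubiquitin ligase adaptor, completed the 6 largest, with log2 ratios of 1.51, 1.36 and 1.14. At Cd9, Mthfs and Klhl25 the ratio is smaller than the median shift of -1.44 that TMM factors bring, so their direction depends on the authors' scaling.

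Among the losses, the widest domain (chr5:113770914-113801226) carries the gene label Iscu but covers the starts of Tmem119, Sart3 and Iscu. It had the 9494 and 7015 basal and 4001 and 3893 CD11c-high tags given above, a log2 ratio of -1.06. A domain near Slco4a1, an organic anion transporter (chr2:180428478-180447121, intergenic), had 4206 and 2940 tags in basal and 589 and 648 in CD11c-high libraries, a log2 ratio of -2.53. One near Ddit4, an inhibitor of mTOR signalling (chr10:59966201-59984412), went from 3230 and 2454 to 983 and 967 tags. The domain of Crybb1, a crystallin gene active in resting microglia (chr5:112246524-112267233), went from 5018 and 3991 to 2146 and 2193. The domains of Ttc7 and 5830444B04Rik had log2 ratios of -1.91 and -1.02.

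Of the promoter gains, Stra6l, which encodes a receptor for retinol-binding protein (chr4:45847244-45850585), was the largest, at 4.79 and 4.22 tags in basal and 321 and 328 in CD11c-high libraries. The promoter of Fam20c, a kinase of secreted proteins (chr5:138754050-138756299), went from 11.2 and 21.1 to 364 and 437 tags. That of Bhlhe40, a transcriptional repressor (chr6:108657847-108663059), went from 65.5 and 32.7 to 1026 and 923. Pianp, Klrb1b and Smim40 completed the 6, with log2 ratios from 4.28 to 4.50. The largest promoter loss was at Gp9, a subunit of the platelet receptor for von Willebrand factor (chr6:87776438-87779439), with 147 and 121 tags in basal and 7.11 and 9.23 in CD11c-high libraries. It was followed by Mroh2a, Sema6d, a semaphorin, Tbx19, Angpt4, an angiopoietin, and Ano7, with log2 ratios from -3.24 to -2.95.

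Peaks clustered at some genes. The 7520 peaks had 4232 nearest genes, of which 2949 (69.7%) had higher peaks only, 1077 (25.4%) lower peaks only and 206 both. At least 5 peaks were listed for 231 genes and at least 10 for 17. Klhl25 had most, 16 higher peaks over 240.1 kb (chr7:75666950-75907061), with summed levels of 3135 and 2515 tags in basal and 9884 and 9186 in CD11c-high libraries. Xylt1, the enzyme that starts glycosaminoglycan chains, had 13 higher peaks with log2 ratios from 2.47 to 4.54, and its summed level went from 589.5 and 482 to 4952 and 4977 tags. Wipf1, a partner of the actin regulator WASP, and the formin Fmnl2 also had 13 each. Sgms1, a sphingomyelin synthase, and Rftn1, a lipid raft protein, had 12 each.

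Losses clustered as well. Itga9, an integrin chain, and Tjp1, a tight junction scaffold, had 10 lower peaks each, and the summed level of Itga9 went from 2733 and 2088 tags in basal to 782 and 854 in CD11c-high libraries. Sall1, a factor of microglial identity, had 9 lower peaks over 379.6 kb, with summed levels of 1884 and 1399 against 583 and 687 tags. Hlf had 9, with 1369 and 990.1 against 187 and 252. Dusp7, a MAP kinase phosphatase, had 8. Prkca, a protein kinase C, had 7 lower peaks and so did Khdrbs3, Ppp2r1b, Gm3264 and LOC100861615. Gm3264 and LOC100861615 belong to families of near-identical copies on chromosome 14, where reads may be split between copies, and their values are uncertain.

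Some loci held long rows of listed peaks. With neighbouring peaks of 1 direction joined across gaps of at most 50 kb, so that a run has 1 direction by construction, 196 of 2842 higher runs and 44 of 1242 lower runs held 5 or more peaks, and 1668 and 862 were single peaks. The runs named here were picked after their values were seen. The longest had 19 higher peaks over 276 kb around Abca1 and Nipsnap3b (chr4:53079003-53355136), with 4524 and 3363 tags in basal and 12402 and 12172 in CD11c-high libraries. A run of 14 higher peaks spanned Lipa, the lysosomal acid lipase, Ch25h, Ifit2 and Ifit3 (chr19:34389462-34585759), and went from 634 and 563 to 3670 and 3755 tags. A run of 12 higher peaks spanned Cd274 and Pdcd1lg2, which encode the ligands of the checkpoint receptor PD-1 (chr19:29364303-29503904), and went from 1550 and 1273 to 7309 and 7049 tags. The longest lower run had 12 peaks around Poc1a, Dusp7, Rpl29 and Acy1 (chr9:106295067-106438920), at 3782 and 2781 against 1216 and 1205 tags. At the 206 genes with peaks of both directions, gains and losses lay in the same locus. Slc7a11, the cystine transporter, had 9 higher and 1 lower peak, and Maf, a macrophage transcription factor, had 2 higher and 5 lower. Both were picked after their values were seen.

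The members were next grouped by 20 lists of genes, read against the background of 69.7% of genes with higher peaks only and 25.4% with lower peaks only, which covers genes that have a listed peak. Of the 24718 genes of the RNA table, 4201 had one. Disease-associated microglia genes had 29 of 35 members with higher peaks only and 0 with any lower peak, over 84 peaks with a median log2 ratio of 2.77. Besides Igf1, the largest were a peak near Ch25h, which makes 25-hydroxycholesterol (chr19:34434820-34436707, intergenic, 3.20 and 8.44 tags in basal, 248 and 267 in CD11c-high libraries), and a peak near Postn, a matrix protein (chr3:54273572-54278517, intron, 6.39 and 10.5 against 424 and 337). An intronic peak of Dkk2, a Wnt modulator (chr3:132171698-132172655), went from 0 and 2.11 to 58.7 and 66.1 tags. Itgax itself is in the list, and CD11c was the sort marker, so the direction of that member is no finding.

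Homeostatic genes ran the other way, with 5 members higher only, 14 lower only, 1 both and 17 with no listed peak of 37. Of these 37 symbols, 35 were found among RefSeq gene names, so the 17 may include symbols that no peak could carry. With peaks within 10 kb of a start, 2 were higher only and 6 lower only. A peak near Adgrg1, a microglial adhesion receptor (chr8:94966127-94968481, intergenic), had 134 and 99.1 tags in basal and 23.1 and 23.1 in CD11c-high libraries. The nearest start for the lower peaks was that of Crybb1, Cst3, Golm1, Gpr165, Gpr34, Mef2a, P2ry12, P2ry6, Sall1, Sall3, Siglech, Slc2a5 or Upk1b in the other members, and Tmem119 would join them by the domain over its start. The 5 with higher peaks only were Jam2, Mef2c, Olfml3, Rtn4rl1 and Smad3. Rhob, a small GTPase, had a peak that went from 32.0 and 12.7 to 0 and 0.77 tags (chr12:8472803-8473432) and another that went from 20.8 and 22.1 to 175 and 199 (chr12:8506725-8508799). No peak nearest to Cx3cr1 or Prmt1 was listed.

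Identity and lineage factors had 22 members higher only, 5 lower only and 3 both. These 22 of 30 members with a listed peak are near the background of 69.7%, and 64.0% of their peaks were higher, against 74.1% of all. The median log2 ratio of this list, 1.27, is smaller than the median shift of -1.44 that TMM factors bring. The direction of some of its higher peaks thus rests on the authors' scaling. Runx1, a factor of myeloid development, had an intronic gain (chr16:92611843-92613537) from 1.60 and 11.6 to 211 and 244 tags. Nfil3, a repressor that binds the sites of PAR bZIP factors (chr13:52984524-52986520, intergenic), went from 16.0 and 13.7 to 233 and 165. Losses were seen at Sall1 (chr8:89058815-89059891, 35.2 and 24.3 against 3.55 and 3.84 tags), at Maf (chr8:115634917-115635643, 28.8 and 25.3 against 3.55 and 2.31) and at Etv5 (chr16:22471467-22472537, 33.6 and 24.3 against 6.22 and 4.61). Of the 19 genes of the circadian list, 10 had no listed peak. The others split into 5 members higher only, Bhlhe40, Bhlhe41, Ciart, Nfil3 and Per2, which are repressors in the clock, and 4 lower only. The lower members included the activators Hlf, Tef and Rora, and an intronic peak of Rora (chr9:69109261-69110769) went from 63.9 and 42.2 to 12.4 and 16.1 tags. The time of day of collection is not stated, and its part in these values was not tested.

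Early response factors had 15 members higher only and 1, Btg2, lower only. Dusp1, a phosphatase that ends MAP kinase signalling (chr17:26511693-26514043, intergenic), had 28.8 and 35.9 tags in basal and 257 and 226 in CD11c-high libraries. Maff, a small MAF factor (chr15:79351197-79352218, intron), had 19.2 and 4.22 against 84.4 and 93.0. Atf3, a stress-induced factor (chr1:191178891-191179633, intron), had 7.99 and 12.7 against 78.2 and 60.8. Fos, Fosb, Fosl2, Jun and Jund were among the others.

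Of the NF-kB pathway, 16 members had higher peaks only and 2, Chuk and Nfkbia, lower peaks only. Ikbke, which encodes the kinase IKK epsilon, had a peak over its start (chr1:131275919-131279796) at 20.8 and 13.7 tags in basal and 470 and 394 in CD11c-high libraries. Tnfaip3, an inhibitor of the pathway, had a distal peak (chr10:18943436-18944570, 67960 bases from the start) at 9.59 and 2.11 against 130 and 103. Traf2, an adaptor (chr2:25533457-25535620, intron), had 19.2 and 8.44 against 184 and 209.9. The inhibitor Nfkbia had a lower distal peak (chr12:55444958-55448398) at 375 and 272 against 161 and 153.

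Interferon-stimulated genes had 26 members higher only, 1 lower only (Gbp7) and 1 both (Zbp1) of 55. Eif2ak2, the sensor kinase PKR (chr17:78891196-78891696, intron), went from 1.60 and 0 to 47.1 and 33.1 tags. Cytokines and chemokines had 27 higher only and 2, Il6 and Pdgfb, lower only. A peak far from Cxcr4, the receptor for CXCL12 (chr1:128746525-128748216, 155071 bases from the start), went from 6.39 and 3.16 to 150.2 and 148 tags. The lower peak nearest to Il6 (chr5:29935071-29937771) went from 265 and 197 to 85.3 and 90.0.

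Of the antigen presentation genes, in the class II list 5 of 15 members had listed peaks, all higher, and in the class I list 1 of 20, H2-Q6 (chr17:35424804-35425431, exon, 22.4 and 16.9 tags in basal against 98.7 and 98.4 in CD11c-high libraries). Each class II chain gene had peaks beside the one at its start. For H2-Aa a peak 6364 bases upstream (chr17:34293812-34294563) had 3.20 and 11.6 against 91.5 and 85.4 tags, and for H2-Eb1 a peak 1497 bases upstream (chr17:34304120-34304620) had 1.60 and 2.11 against 29.3 and 25.4. For H2-Ab1 a peak 4789 bases upstream (chr17:34257776-34259101) had 17.6 and 25.3 against 107 and 112. Costimulation and checkpoint genes had 11 of 20 members higher and 0 lower, among them Pdcd1lg2 (chr19:29448648-29449148, 0 and 4.22 against 56.9 and 43.1) and Slamf7 (chr1:171657426-171659676, 35.2 and 34.8 against 362 and 339).

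Lipid and cholesterol genes had 28 members higher only and 1, Acsl1, both, of 45. Apoc2, an activator of lipoprotein lipase (chr7:19674451-19677294, intron), went from 27.2 and 27.4 to 547 and 487 tags. A peak downstream of the lipase gene Lpl (chr8:68924406-68928059, 45677 bases from the start) went from 28.8 and 20.0 to 496 and 484, and one upstream of Plin2, which coats lipid droplets (chr4:86689026-86692473), from 24.0 and 15.8 to 444 and 394. Lysosome genes had 17 of 36 members higher and 0 lower. Rab7b, a GTPase of late endosomes (chr1:131688159-131692774, intron), went from 46.3 and 50.6 to 1107 and 1077 tags, and Galns, a lysosomal sulfatase (chr8:122604043-122605837, intron), from 9.59 and 9.49 to 217 and 209.9.

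Receptor lists are read against the background of 69.7% of genes with higher peaks only. Phagocytic and pattern receptors had 20 members higher only and 2, Stab1 and Tlr3, lower only. Lilrb4a, an inhibitory receptor (chr10:51490080-51492836, exon), went from 25.6 and 14.8 to 341 and 334 tags, and a peak near Tlr2, a receptor for bacterial lipopeptides (chr3:83884430-83886656), from 14.4 and 19.0 to 200.0 and 193. Integrins and adhesion genes had 11 higher only and Itgae lower only. Itga5, the fibronectin receptor chain (chr15:103380932-103383522, intergenic), went from 12.8 and 7.38 to 390.2 and 347, and Cd44, the hyaluronan receptor (chr2:102898609-102901783, intron), from 35.2 and 32.7 to 336 and 361. Purinergic and chemoattractant receptors had 10 higher only, such as Hcar2 and C3ar1, and 3 lower only, Gpr34, P2ry12 and P2ry6. These 10 of 13 members with a listed peak are near the background. The median log2 ratio of this list, 1.44, is about the size of the median shift of -1.44 that TMM factors bring. The direction of many of its peaks thus rests on the authors' scaling. Complement genes had 3 of 18 members listed, C3ar1, Itgam and Itgax, all higher.

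The remaining lists covered growth and metabolism. Glycolysis and hypoxia genes had 13 members higher only, with Slc2a1, the glucose transporter (chr4:119117153-119119956, intron), at 38.3 and 30.6 against 377 and 364 tags. Hk1, Hk3 and Pkm, enzymes of the first and last steps of glycolysis, had lower peaks only, and the Hk1 peak, of a hexokinase (chr10:62305564-62307311, intron) went from 68.7 and 53.8 to 7.11 and 10.8. Of 31 cell cycle genes, 22 had no listed peak, 7 had higher peaks only, 1 lower only (Ccnd1) and 1 both (E2f8). These 7 of 9 members with a listed peak are near the background of 69.7%. A distal peak of Mki67, the gene of the Ki-67 antigen (chr7:135773515-135774623), went from 1.60 and 6.33 to 74.7 and 68.4. The TGF-beta pathway had 11 higher only and 2, Smad4 and Smurf2, lower only, but 1 and 0 with peaks within 10 kb of a start, so that this list rests on distant peaks. Tgif1, a corepressor of SMAD factors (chr17:70797599-70800608, intron), went from 3.20 and 4.22 to 247 and 241 tags.

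**Figure D4:**
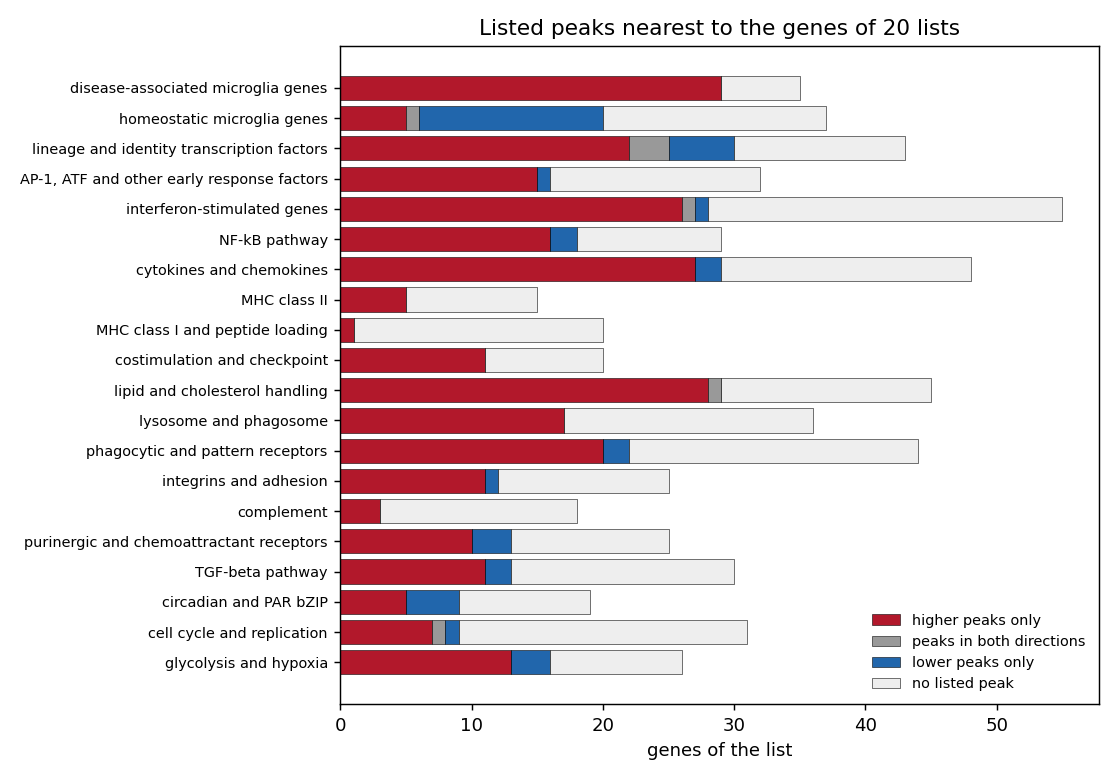
Number of genes in each of 20 lists with higher listed peaks only, lower peaks only, peaks in both directions or no listed peak, by the nearest start. Disease-associated genes have 29 members higher only and 0 lower, homeostatic genes 5 higher only and 14 lower only, and the circadian list 5 and 4.

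Markers of other cells were looked up in 8 lists. Neurons (12 genes) and neutrophils (10 genes) had no listed peak. Monocytes and border macrophages had 4 members higher only, 2 lower only and 1 both of 18, dendritic cells 2 and 1 of 10, lymphocytes and NK cells 3 and 1 of 16, astrocytes 2 and 0 with 1 both of 12, and endothelium and pericytes 4 and 1 with 2 both of 15. Oligodendrocyte genes had 2 higher only and 2 lower only of 16. Cspg4, which encodes NG2 (chr9:56864940-56872702, intron), had 17.6 and 20.0 tags in basal and 651 and 557 in CD11c-high libraries, and an intronic peak of Mbp, the gene of a myelin protein (chr18:82574641-82576832), 19.2 and 20.0 against 260 and 253. Mog, another myelin gene, had a lower peak (chr17:37021879-37023860, 169 and 149 against 21.3 and 26.1). Cspg4 is also counted under endothelium and pericytes, and the study names it among the transcripts of its phagocytic microglia cluster. The part of other cells in these values was not tested.

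Motif matches were counted on both strands of every listed peak. The AP-1 motif (TGANTCA) had 3.68 matches per 10 kb in higher and 2.89 in lower peaks, against 3.11 in 51195 windows of 500 bases spaced over the genome. In the central 500 bases of a peak it was found in 18.8% of higher and 12.7% of lower peaks and in 14.1% of the genome windows. The density was higher in each class of peaks by GC content, at 3.96 and 3.27 in the low, 3.71 and 3.07 in the middle and 3.30 and 2.48 per 10 kb in the high class. The CRE motif (TGACGTCA), bound by ATF and CREB factors, had 0.123 matches per 10 kb in higher and 0.0576 in lower peaks, and the NF-kB motif (GGANTTTCC) 0.500 and 0.343. Genome windows held CRE in 0.256% and NF-kB in 1.56%, against 0.826% and 2.87% of the central windows of higher and 0.103% and 1.59% of those of lower peaks. No CRE match contains an AP-1 match.

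Densities of the remaining motifs are given in the same unit for higher peaks, lower peaks and genome windows. PU.1 (GAGGAAGT), the factor of macrophage identity, had 1.26 matches per 10 kb in higher and 1.33 in lower peaks, against 0.621 in the genome windows. The MAF motif (TGCTGAC) had 1.94 and 2.00 against 1.37, the DR1 motif (GGTCANAGG) of nuclear receptors 0.765 and 0.814 against 0.463, and RUNX (AACCACA) 2.80 and 2.45 against 2.47. The E-box (CACGTG) had 1.66 and 1.53 against 1.01, and KLF/SP (GGGCGGGG) 1.20 and 0.970 against 0.313. Below the genome windows by density in both directions were IRF (TTCNNTTTC), with 3.99 and 3.53 against 4.56, and MEF2 (CTATTTATA), with 0.122 and 0.121 against 0.159. The MiT/TFE motif (TCACGTGA), which contains the E-box, had 0.0915 and 0.0720 against 0.0461. The ratio of higher to lower density was largest for C/EBP (TTGCGCAA), at 2.94, but rests on 36 and 5 matches in all, and that of PAR bZIP (TTACGTAA), at 1.72, on 42 and 10. By window, the central 500 bases held PU.1 in 8.38% of higher and 9.70% of lower peaks against 3.02% of genome windows, and IRF in 18.4% and 16.8% against 18.9%. MEF2 was in 0.844% and 0.770% against 0.793%, so by window the higher peaks were not below the genome. Genome windows were not matched to the peaks for GC content. A match is a description of the sequence and not a site of binding.

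**Figure D5:**
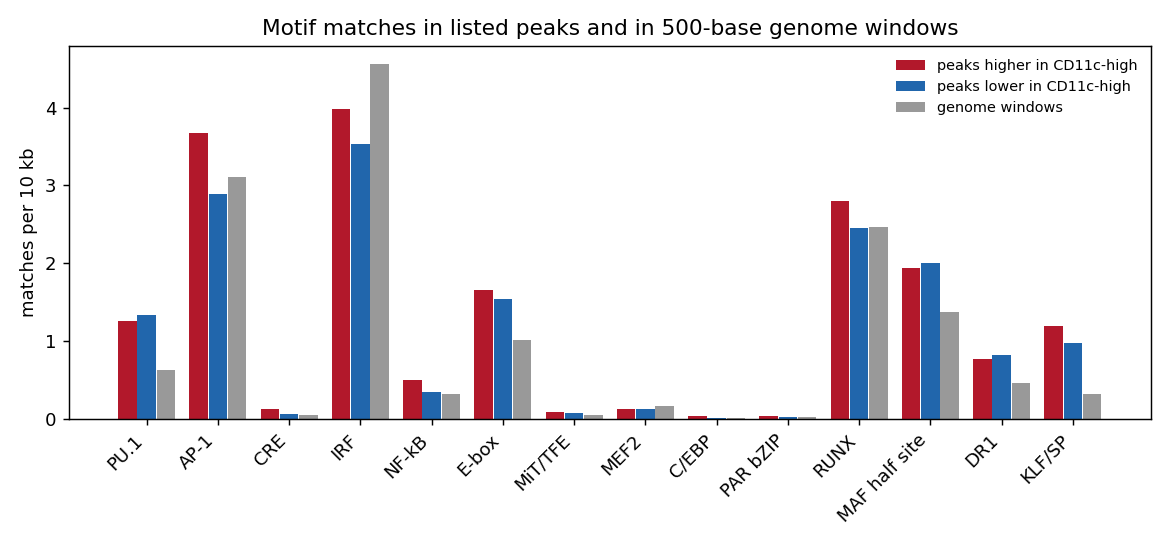
Matches per 10 kb to 14 motifs in higher peaks, lower peaks and 500-base genome windows, both strands. AP-1 is denser in higher (3.68) than in lower peaks (2.89), and PU.1 (1.26 and 1.33) is near equal in both and above the genome windows (0.621).

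The levels of some members were set beside those in CD11c-low microglia of the same CPZ diet. These tables share libraries with the present one, list only peaks that differed in their own comparison, were scaled separately and can have other region limits, so that values are given without a test and their direction is no finding. At the Igf1 distal peak CD11c-low cells had 173 and 169 tags in their comparison with basal cells, where the basal libraries had 0 and 4.34. At a shorter region of the Stra6l promoter (chr4:45848577-45850401) CD11c-low cells had 69.8 and 72.9 tags and basal cells 3.29 and 4.34. At the Bhlhe40 promoter they had 757 and 636 against 67.4 and 33.6. At the Hlf intron CD11c-low cells had 43.9 and 69.5 against 148 and 124 in basal cells, and at Gpr165 24.3 and 51.1 against 246 and 189. In the table of CD11c-high against CD11c-low cells, the 2 pieces of the Slco4a1 domain had 334 and 344 against 1096 and 1167 tags, and 350 and 407 against 1105 and 1292. At the Igf1 distal peak of that table, CD11c-low cells had 221 and 217 and CD11c-high cells 443 and 482 tags. At Cspg4, in the comparison of CD11c-low with basal cells, CD11c-low cells had 679 and 556 tags and basal cells 19.7 and 22.8.

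The comparison of knockout with WT CD11c-low microglia shares no library with the present one. Of its 271 listed peaks, 105 (38.7%) overlapped a member by at least 1 base, and 111 of the 7520 members (1.48%) did so. By direction, 73 higher members overlapped peaks that were higher without PRMT1 and 22 overlapped peaks that were lower, while 5 and 11 of the lower members did so. That table lists 222 higher and 49 lower peaks, so gains overlapped 67 (30.2%) of its higher and 22 (44.9%) of its lower peaks. The distal Csf1 gain, near the gene of a microglial survival factor (chr3:107727568-107730373), had 97.0 and 99.5 tags in knockout and 212 and 209 in WT CD11c-low cells. A shorter region inside the Hlf intron peak (chr11:90355787-90356568) had 2.20 and 5.85 tags in knockout and 28.1 and 44.0 in WT cells. A higher member near Per2 (chr1:91455815-91457300) had 326 and 249 in knockout and 96.5 and 90.0 in WT cells.

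The RNA table of the same comparison was used for the authors' mean level only, taken over 3 basal and 1 CD11c-high RNA libraries, and this mean holds no direction. A mean of at least 10 was reached by 2006 (68.4%) of the genes with higher peaks only that had an RNA row, 669 (62.7%) of those with lower peaks only and 152 (74.9%) of those with both. Over all 24718 genes of the table the share was 43.8%. Among the genes above, the mean per kb of transcript was 535 for Apoe, 134.5 for Rtf2, 99.5 for Gpr165, 98.5 for Gp9, 65.6 for Bhlhe40, 50.9 for Igf1 and 18.2 for Hlf. It was 1.23 for Vwf, whose nearby peak was higher.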

How the data were processed

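H3K27ac was measured by ChIP-seq in WT basal and WT CPZ CD11c-high microglia (2 libraries each). Per the labels and the study's methods, the authors mapped single-end reads with Bowtie2, inspected them with FastQC 0.11.9, removed duplicates with SAMtools 0.1.19, called peaks with HOMER, merged them between groups, counted tags and ran DESeq2 through HOMER. The deposited signal is a normalized tag count per peak and replicate, scaled by the authors over the 4 libraries of a comparison. The deposited log2 fold changes and p-values are the authors' own and were neither used nor printed. The tables list peaks that passed the authors' limits (0.05 for the adjusted p, 1 for the size of the log2 fold change), and no test over unlisted peaks was run here. The human build hg19 is named beside mm10, and 99.5% of 7493 peaks lay within 100 bases of their stated distance to a start in GRCm38.p6, so mm10 was used.

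Whole reads were recovered from the value of 1 read, with a tolerance in reads of 0.006 divided by that value, plus 0.003. Reads are PCR reads without molecular identifiers, and a floor of 3 reads covers counting error only. Total library sizes are not stated. Log2 ratios used a pseudocount of 1. limma 3.58.1 was fitted to log2(value + 1) over the listed peaks (intercept and group, Benjamini-Hochberg), and edgeR 4.0.16 and DESeq2 1.42.0 to the recovered reads with library sizes set by relative depth. The models were tested on simulated data. The RNA table is a deposited signal, the authors' mean over 4 RNA libraries, and 19 per-library RNA columns that match no sample of the series were not used. Levels of RNA were divided by transcript length where genes are compared.

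Named peaks followed a rule, per direction: the 12 largest log2 ratios at a mean of at least 50, the 6 largest differences, the 6 genes with most peaks, up to 4 members per list at a mean of at least 20, all peaks of 10 genes that the study discusses, and the 6 largest promoter peaks. Members, lists and motifs were chosen with earlier results of these data known. Same-numbered libraries did not deviate together (correlation -0.034 over 7520 peaks). Alternatives were pseudocount, level, scaling, distance, overlap, autosomes, a replicate block and leaving out each library. KO basal and input libraries were not analysed here. Python 3.11.15, pysam 0.24.0 and R 4.3.3 were used. Some peaks that this rule names, and some sequence, are not reported here.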

Additional observations from a re-analysis of the deposited data

How the results depend on the processing

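The number of lower peaks, 1949, fell to 1274 with a mean of at least 50 in the higher group and became 3589 with TMM factors and 3625 with DESeq2 size factors computed over the listed peaks, where 3931 and 3895 peaks were higher (52.3% and 51.8% in place of 74.1%). These factors centre a list chosen for change and moved the log2 ratios by a median of -1.44 and -1.45. By construction they cannot say which direction holds more peaks. With peaks within 10 kb of a start, 10 genes of all pathway lists had lower peaks only, in place of 33, and 173 higher peaks only, in place of 244. The TGF-beta list fell from 11 to 1 higher only, the homeostatic list from 14 to 6 lower only, and lineage factors from 22 to 12, early response factors from 15 to 9 and integrins from 11 to 6 higher only. The overlap with the knockout comparison fell from 111 to 48 members when at least 50% of each peak had to be shared. The CRE density ratio of higher over lower peaks was 2.14, and 8.05 for central windows, where lower peaks held few matches (0.103%), and the ratio for AP-1 was 1.27 and 1.48. No central window of a lower peak held the C/EBP or PAR bZIP motif, so that no ratio could be given.

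Without each library in turn, limma called 6104 to 7390 peaks. The peaks at or under 3 reads in basal numbered 587 to 863, and those in CD11c-high 274 to 324, where 1 library remained. The lone library is assumed to vary like the other group. The numbers of higher and lower peaks, 5571 and 1949, and the gene list totals, 244 and 33, were the same without any library. This was fixed in advance, since the groups do not overlap at any listed peak. The replicate block changed no call but 1, with 7520 in place of 7519 peaks called, and the labels share only a number. edgeR and DESeq2 on the recovered reads, both added after seeing the data, called 7520 each. Of 1555 values for 311 named peaks, with another pseudocount or without a library, 91 moved by more than the replicate spread. That 0 changed sign was fixed in advance, since a pseudocount cannot reverse a ratio and the groups nowhere overlap. The other scalings, which can change a sign, were not tried on these peaks. A pseudocount of 5 changed the size of the ratios by a median of -0.22 and by -2.24 at most. Leaving out the chromosome 14 families, chosen after seeing the data, left 228 of 231 genes with 5 or more peaks. Depth limits the weak peaks most, since the shallower basal library held a median of 22 reads at gains.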
